A study of Ovis aries with 16 samples.

Results

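The miRNAs described here are miR-10a, miR-10b, miR-99a, miR-100 and miR-125b of the sheep testis. They were picked by name, and 4 of the 5 were listed in the deposited values, among 271 miRNAs and 5267 small RNAs in all. No entry named oar-miR-100 was in the tables analysed here. The predicted miRNA that the study pairs with miR-100 of other species, candidate-miR-6, is therefore given beside the members and is not counted among them. Predicted miRNAs are called candidate-miR, with the number the authors gave them.

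Testes of 16 sexually mature Merino males were sequenced, 8 of them well-fed and 8 underfed, with 1 small RNA library per male. The diets were set for a gain (10%) or a loss (-10%) of body mass within 65 days, on oaten chaff and lupin grain adjusted weekly for each male. No other treatment is described, and RNA came from pieces of the whole organ, so every library mixed germ cells, Sertoli cells, Leydig cells, peritubular muscle and blood vessels. Males are named by diet and by the replicate number of their label, which only names them.

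The genes of miR-10a and miR-10b lie inside the HOX clusters that pattern the body axis, and both miRNAs are known to repress HOX transcripts. Their mature forms have the same seed, the stretch that selects targets, and differ at a single base near the middle. MiR-99a and miR-100 are sister miRNAs that also differ at a single base and are known to repress MTOR, a kinase that drives cell growth. MiR-125b descends from lin-4, the founding miRNA, and in mammals its genes stand near genes of the let-7 and miR-99/100 groups.

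In the RefSeq annotation of another sheep assembly (ARS-UI_Ramb_v3.0), 4 of the 5 names had an entry. MIR10A lay within HOXB3, between HOXB5 and HOXB4. MIR10B lay within HOXD4, between HOXD3 and HOXD8. MIR99A stood beside MIRLET7C, and MIR125B between TVP23B and UBASH3B. Mature oar-miR-125b comes from more than a single locus in mammals, and the deposited value does not separate loci.

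The values are read counts scaled to the total of the miRNA class of each library (CPM). Libraries held 17163 to 1058985 miRNA reads, and well-fed 5, underfed 6 and underfed 8 were the 3 libraries under 100000. Among the underfed libraries, underfed 1 and underfed 8 stood apart. Of the 244 miRNAs tested, 41 were far above the other underfed males in underfed 1 and 24 in underfed 8, against 0 to 5 in each of the other 6. Values midway between whole numbers of reads occurred for the close relatives, with 6 libraries affected in oar-miR-10a, 4 in oar-miR-10b and 5 in oar-miR-99a, and 0 in oar-miR-125b. Candidate-miR-6 had 5 such libraries. Values neither whole nor midway within 0.02 reads occurred in 4 libraries for oar-miR-10a and 5 for oar-miR-10b. They also occurred in 1 for oar-miR-99a, 2 for oar-miR-125b and 2 for candidate-miR-6. How reads that fit both oar-miR-10a and oar-miR-10b were shared out is not given in the sources used here, so the split between near-identical miRNAs is uncertain.

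Oar-miR-10b was the most abundant miRNA in 15 of the 16 males and held the second place in well-fed 4. Its lowest, median and highest expression was 183176, 204586 and 278027 CPM among well-fed males, and among underfed males 140152, 308014 and 377983 CPM. Of the underfed males, 6 were above every well-fed male, underfed 1 was below every well-fed male, and underfed 8 lay within their range. The ratio of mean CPM, underfed over well-fed (FC), was 1.40. With library factors from the trimmed mean of M-values (TMM), the log2 fold change was 0.92 (SE 0.27, limma FDR 0.0446 over 244 miRNAs).

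Oar-miR-10b thus passed the FDR limit of 0.05 and stayed inside the FC limits of 0.67 and 1.5 that a differentially expressed (DE) miRNA had to exceed. Without underfed 1 its FC was 1.51, its log2 fold change 1.14 and its limma FDR 0.000634, which made it DE. Without TMM factors the log2 fold change was 0.44 and the limma FDR 0.117. Leaving out each of the 16 males in turn kept the FDR under 0.05 in 4 fits.

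**Figure D1:**
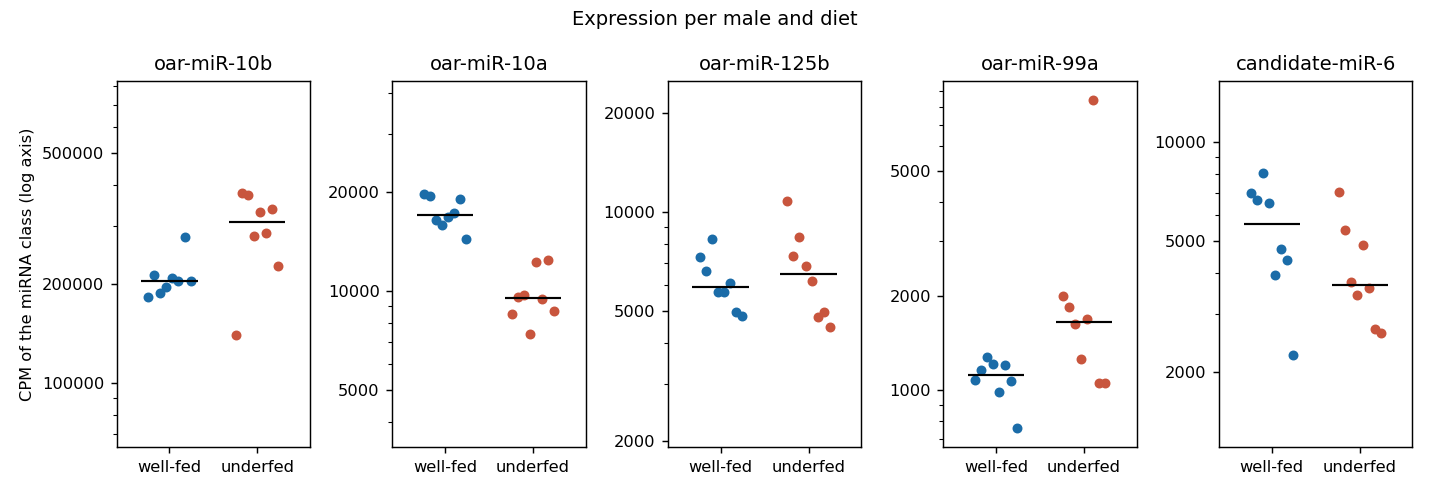
Expression of the 4 listed members and of candidate-miR-6, the miR-100 homologue, in CPM of the miRNA class on log axes that span different ranges. Each point is 1 male (8 per diet) and each line is the median of a diet. All 8 underfed males lie below all 8 well-fed males for oar-miR-10a, and underfed 6 lies far above the others for oar-miR-99a at 8418 CPM.

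Oar-miR-10a was between 14397 and 19630 CPM in well-fed males, with a median of 17049 CPM. In underfed males it was between 7412 and 12369 CPM, with a median of 9496 CPM. The diets did not overlap, and the FC was 0.562. Such a gap, with every underfed male below every well-fed male, was found for 5 of the 244 miRNAs (2.05%), and the opposite gap for 0. Its rank among miRNAs ran from 10 to 16 with the well-fed diet and from 12 to 25 with the underfed diet.

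On the TMM scale, the log2 fold change of oar-miR-10a was -0.37 (SE 0.18, limma FDR 0.201) and did not pass the test. The value depended on the scale, at -0.84 without TMM factors (limma FDR 0.000896) and at 0.59 when miRNAs and piRNAs were normalized jointly (limma FDR 0.166). The median of all 244 miRNAs moved too, from -0.08 with TMM to -0.51 without it and to 0.82 jointly. Relative to that median, the log2 fold change of oar-miR-10a was -0.34 to -0.23 under the 5 normalizations. This relative value could hardly change, since a normalization moves all miRNAs of a library nearly alike.

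Oar-miR-99a was the least abundant of the 4 listed members by mean CPM. Its lowest, median and highest expression was 760, 1120 and 1279 CPM among well-fed males, and among underfed males 1058, 1658 and 8418 CPM. Of the underfed males, 5 were above every well-fed male and 3 lay within the well-fed range. The FC was 2.16 and the log2 fold change 1.22 (SE 0.33, limma FDR 0.0329), so oar-miR-99a was DE. The value of 8418 CPM came from underfed 6, a library of 27797 miRNA reads, and rested on 234 reads. Without underfed 6, the FC was 1.38 and the log2 fold change 0.84 (limma FDR 0.0169). That passed the FDR limit and not the FC limit, which is set on CPM without TMM factors. In the 13 libraries above 100000 miRNA reads the FC was 1.42 and the log2 fold change 0.98 (limma FDR 0.00395).

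Oar-miR-125b was between 4821 and 8253 CPM in well-fed males, with a median of 5893 CPM. In underfed males it was between 4471 and 10748 CPM, with a median of 6482 CPM. The diets overlapped widely, with 2 underfed males above and 2 below the whole well-fed range. The FC was 1.09, and the log2 fold change was 0.56 (SE 0.17, limma FDR 0.0527), just outside the limit. The limma FDR was 0.0081 in the 13 deeper libraries. With 1 male left out it passed in 2 of 16 fits, without underfed 1 (0.0359) or underfed 8 (0.0073), and was at most 0.209, without underfed 3. Without TMM factors the log2 fold change was 0.08 (limma FDR 0.779).

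Candidate-miR-6, the miR-100 homologue, was between 2253 and 8093 CPM in well-fed males and between 2635 and 7087 CPM in underfed males. The underfed values all lay within the well-fed range. Its log2 fold change was 0.11 (95% interval -0.39 to 0.62, limma FDR 0.763), and it turned negative (-0.36) without TMM factors. With joint normalization it was 1.07 (limma FDR 0.0262), past the FDR limit, where the median of all miRNAs was 0.82.

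In the fit with TMM factors, 2 of the 4 listed members were called higher in underfed males and 0 were called lower. Over all 244 miRNAs, 15 were called (6.15%), 9 of them higher (3.69%) and 6 lower (2.46%). DE, by FDR and FC together, was 1 member, and 8 of all miRNAs (3.28%). Relative to the median of all miRNAs, the log2 fold change under the normalizations tried of oar-miR-10b was 0.95 to 1.06, that of oar-miR-99a 1.26 to 1.36 and that of oar-miR-125b 0.59 to 0.70. A normalization moves all miRNAs of a library by nearly the same log2 amount. Neither these values nor the order of the members by them could therefore change much.

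**Figure D2:**
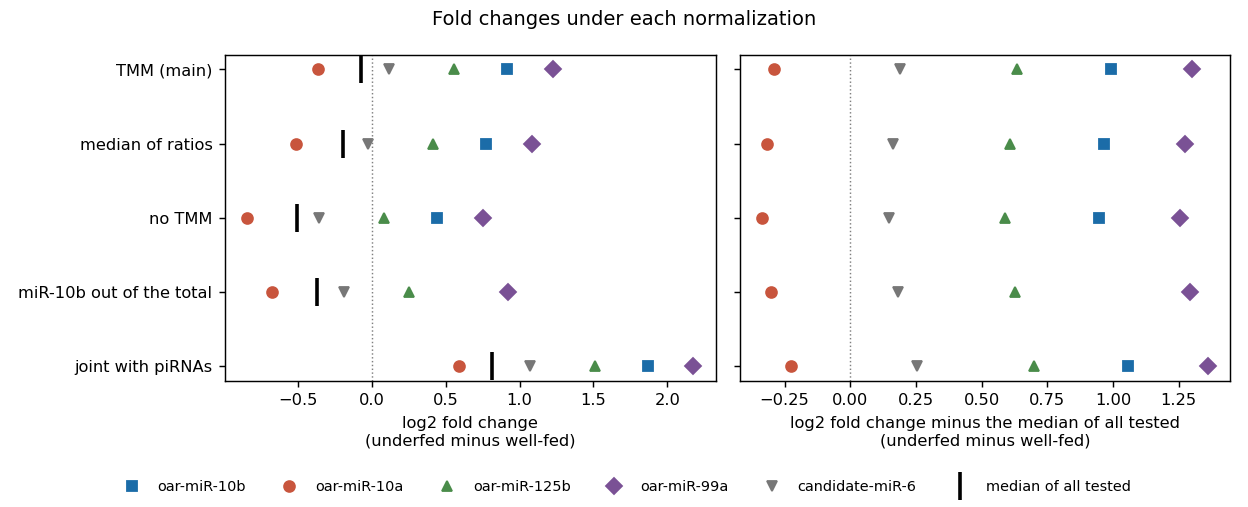
Log2 fold changes, underfed minus well-fed, of the listed members and candidate-miR-6 under 5 normalizations, with the median of all tested miRNAs (left) and after subtraction of that median (right). Oar-miR-10a is below 0 on the left under 4 normalizations and at 0.59 under joint normalization with piRNAs, and is below the median under all 5. Values on the right can hardly differ between normalizations, which move all miRNAs of a library nearly alike.

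A share of miRNA reads needs no library factor. Oar-miR-10b made up 20.9% ± 2.96 (SD, n = 8) of all miRNA reads when males were well-fed, against 29.4% ± 8.03 (SD, n = 8) when underfed, a difference of 8.46 percentage points that did not pass an exact permutation test adjusted over 244 miRNAs (two-sided p = 0.0162, FDR 0.0789). Without underfed 1 the difference was 10.7 percentage points and passed (exact permutation FDR 0.00702). Oar-miR-10a made up 1.73% ± 0.187 (SD, n = 8) and 0.974% ± 0.175 (SD, n = 8), lower in 8 of 8 underfed males (exact permutation p = 0.0001554, the smallest that 12870 arrangements can give, FDR 0.00758). Shares of 29 miRNAs (11.9%) were lower in underfed males at that FDR, and of 2 (0.82%) higher.

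Since oar-miR-10b is so large a part of the total, the other shares were also computed without it. Oar-miR-10a then made up 2.20% for well-fed against 1.41% for underfed males (exact permutation FDR 0.0189), and the ranges overlapped, at 1.81% to 2.63% against 0.992% to 1.87%. Lower shares were then found for 21 of 243 miRNAs (8.64%) and higher shares for 5 (2.06%). Oar-miR-99a was among the higher, at 0.139% ± 0.0205 against 0.336% ± 0.344 (SD, n = 8, exact permutation FDR 0.0298). Without underfed 6 that difference of 0.198 percentage points was 0.0776 (exact permutation FDR 0.0515), and 11 of the 16 fits with 1 male left out did not pass. With oar-miR-10b in the total, oar-miR-99a had 0.110% and 0.237% (exact permutation FDR 0.0664), a difference of 0.128 percentage points that was 0.0411 without underfed 6. Oar-miR-125b had 0.779% and 0.953% without oar-miR-10b in the total (exact permutation FDR 0.323).

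With miRNA and piRNA reads together as the total, a choice made after seeing the data, oar-miR-10a had 0.640% and 0.604% (exact permutation FDR 0.759). On that total the other 3 members took higher shares in underfed males, with exact permutation FDR 0.0357 (oar-miR-10b), 0.00948 (oar-miR-99a) and 0.0114 (oar-miR-125b). The share of oar-miR-10a was thus lower within the miRNA class, and on the sum of both classes no difference was detectable.

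The ratio of a pair of members within a library depends neither on a total nor on a library factor. For each read of oar-miR-10a there were 12.1 reads of oar-miR-10b at the median of the well-fed males (range 9.33 to 14.7) and 28.8 at that of the underfed males (range 16.4 to 39.5). The diets did not overlap, and the ratio was higher in all 8 underfed males than in any well-fed male. Mean log2 ratios were 3.59 ± 0.21 (SD, n = 8) for the well-fed diet and 4.88 ± 0.42 (SD, n = 8) for the underfed diet, a 2.44-fold difference (log2 1.28, exact permutation p = 0.0001554, two-sided).

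Both other ratios with oar-miR-10a above the line were lower in underfed males. That of oar-miR-10a to oar-miR-99a spanned 12.8 to 18.9 for well-fed males and 1.12 to 11.7 for underfed males, again without overlap (log2 difference -1.59, exact permutation p = 0.0001554). The ratio of oar-miR-10a to oar-miR-125b spanned 1.98 to 3.84 for well-fed males and 0.793 to 2.50 for underfed males, with overlap (log2 difference -0.93, exact permutation p = 0.000466). In underfed 1, oar-miR-125b exceeded oar-miR-10a.

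The ratios among the remaining members differed less. Oar-miR-125b to oar-miR-99a spanned 4.61 to 6.76 for well-fed males and 0.568 to 5.43 for underfed males (log2 difference -0.67, exact permutation p = 0.0127), and without underfed 6 the log2 difference was -0.29 (exact permutation p = 0.0256). Oar-miR-10b to oar-miR-125b was 22.7 to 56.3 against 13.0 to 68.5 (log2 difference 0.36, exact permutation p = 0.259). Without underfed 1 that log2 difference was 0.61 (exact permutation p = 0.00544) and passed the adjustment. Oar-miR-10b to oar-miR-99a was 146 to 269 against 33.9 to 320 (log2 difference -0.31, exact permutation p = 0.494), and 0.0041 without underfed 6.

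The test was set out with adjustment over these 6 ratios, when earlier results of these data were already known. With that Benjamini-Hochberg adjustment, 4 of the 6 passed an FDR of 0.05. After those values had been seen, the same test was run on the ratios of all 29646 pairs of tested miRNAs. Adjusted over all of them, 3 of the 6 passed, with exact permutation FDR 0.0331 for both oar-miR-10b to oar-miR-10a and oar-miR-10a to oar-miR-99a and 0.0372 for oar-miR-10a to oar-miR-125b. Oar-miR-125b to oar-miR-99a did not pass (exact permutation FDR 0.113). Of all pairs, 924 passed (3.12%) and 139 did not overlap between the diets (0.469%), against 2 of the 6 ratios of members. The 6 ratios share members, and oar-miR-10a is in both of these 2 and in all 3 that passed. Against 243 other miRNAs, ratios of oar-miR-10a did not overlap for 12 and passed as lower for 26. For oar-miR-99a, 12 did not overlap and 46 passed as higher. For oar-miR-10b and oar-miR-125b, 2 each did not overlap, and 10 and 17 passed as higher. Under this wider adjustment oar-miR-10b to oar-miR-10a passed in 9 of the 16 fits that left out 1 male. It missed without any of well-fed 1, 2, 3, 4, 6, 7 or 8, at exact permutation FDR up to 0.0845. Its unadjusted exact permutation p was 0.0003108 without any 1 well-fed male and 0.0001554 without any 1 underfed male. The log2 difference stayed at 1.22 to 1.40, so the misses do not set those males apart. Oar-miR-10a to oar-miR-99a passed in 9 of the 16 fits too, and oar-miR-10a to oar-miR-125b in 7.

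**Figure D3:**
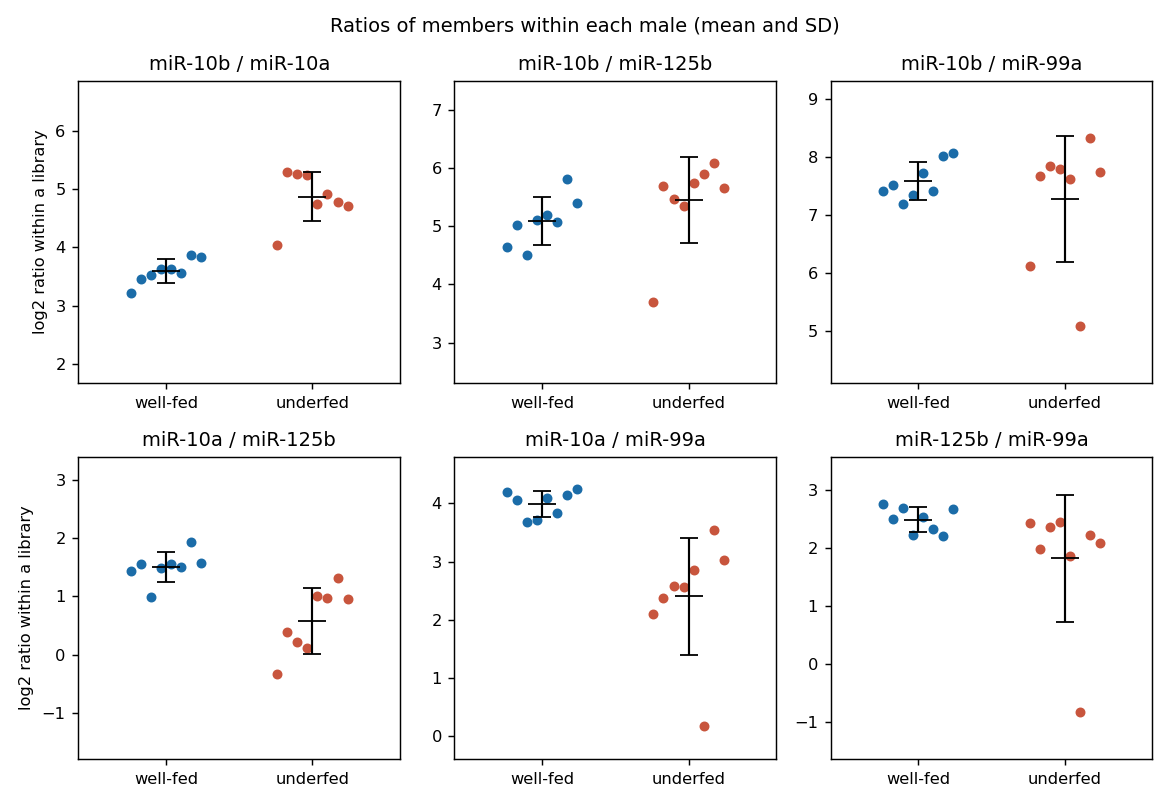
Log2 ratios of the 6 pairs of members within each library, with 1 point per male (8 per diet) and the mean and SD of each diet in black, all panels spanning the same height. The diets do not overlap for oar-miR-10b to oar-miR-10a and for oar-miR-10a to oar-miR-99a.

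Germ cells in and after meiosis are marked by the miR-34b, miR-34c and miR-449a homologues (candidate-miR-30, candidate-miR-31 and candidate-miR-161). Of these 3 miRNAs, 2 were called lower in underfed males, against 6 of all 244 miRNAs (2.46%). The median log2 fold change of the list was -0.80, beside -0.08 for all tested miRNAs. The summed expression of the list spanned 47497 to 71079 CPM for well-fed males and 10978 to 58155 CPM for underfed males. Most of that sum was candidate-miR-31, with mean CPM of 44970 (well-fed) and 19776 (underfed). Candidate-miR-161 had 13644 and 6180 CPM, and candidate-miR-30 had 2547 and 1249 CPM. In a whole organ, fewer cells of a type and less RNA per cell cannot be told apart.

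The germ-cell sum of underfed 8 was 58155 CPM, within the well-fed range, and that of underfed 1 was 44629 CPM, while the other 6 underfed males reached at most 21706 CPM. Oar-miR-10b was 226492 CPM in underfed 8 and 140152 CPM in underfed 1, the lowest values of the underfed males. Oar-miR-10a was 8663 CPM in underfed 8 and 8525 CPM in underfed 1, both below the lowest well-fed value of 14397 CPM. Underfed 1 was thus below every well-fed male in the germ-cell sum, in oar-miR-10a and in oar-miR-10b. The part of the germ-cell content in the differences of the members was not tested.

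**Figure D4:**
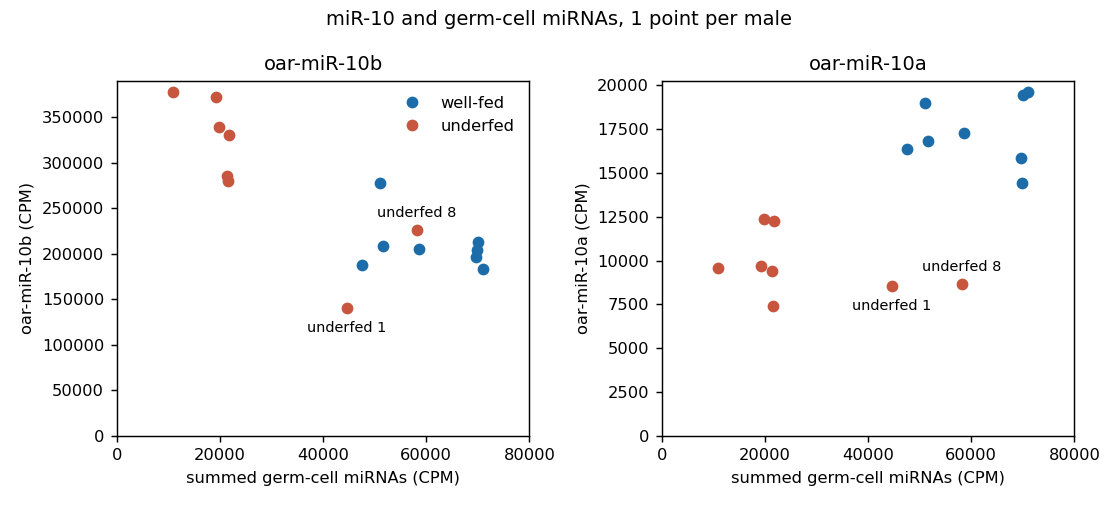
Expression of oar-miR-10b (left) and oar-miR-10a (right) against the summed expression of 3 germ-cell miRNAs, all in CPM, with 1 point per male and linear axes from 0. Underfed 1 and underfed 8 are the underfed males with germ-cell sums of 44629 and 58155 CPM, and for oar-miR-10a they lie below every well-fed male.

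Smooth muscle and peritubular cells were represented by 5 miRNAs, among them miR-143 and the miR-145 homologue. Of these, 0 were called by limma (15 of all 244 miRNAs) and 2 had an unadjusted p under 0.05 (63 of all 244). All 5 had a log2 fold change above 0 (115 of all 244), with a median of 0.62. Their summed expression spanned 154466 to 211658 CPM for well-fed males and 139444 to 216032 CPM for underfed males. The 3 blood miRNAs had 0 called by limma (15 of all 244) and 0 with an unadjusted p under 0.05 (63 of all 244). Their median log2 fold change was 0.10. The part of either cell type in the members' values was not tested.

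The let-7 group, kin of the genes beside miR-99, miR-100 and miR-125 genes, had 9 miRNAs tested. Of these, 0 were called by limma, 6 had an unadjusted p under 0.05, and 8 had a log2 fold change above 0 (median 0.39). Over all 244 miRNAs these 3 counts were 15, 63 and 115, with a median of -0.08. The log2 fold change was 0.39 for let-7a (limma FDR 0.170), 0.50 for let-7c (limma FDR 0.142) and 0.32 for candidate-miR-143, the let-7e homologue (limma FDR 0.262). These fold changes are on the TMM scale. In CPM without TMM factors, the FC of these was 0.958, 1.04 and 0.878 in the same order. The summed CPM of the group spanned 65955 to 109705 (median 103780) for well-fed males. For underfed males it spanned 77982 to 138030 (median 83699). The ratio of oar-miR-99a to let-7c, whose genes neighbour each other, had medians of 0.233 (well-fed) and 0.306 (underfed), with overlapping ranges of 0.163 to 0.465 and 0.205 to 2.93.

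Other miRNAs of HOX clusters were scarce beside miR-10. The miR-196 homologue candidate-miR-111 had medians of 146 CPM (well-fed) and 92.3 CPM (underfed), without TMM factors. On the TMM scale its log2 fold change was 0.02 (limma FDR 0.972). A further miR-196 homologue, candidate-miR-112, had medians of 7.84 and 6.85 CPM (log2 fold change on the TMM scale 0.37, limma FDR 0.744). It rested on 0 to 4 reads per well-fed library and 0 to 9 per underfed library. The miR-615 homologue candidate-miR-131 had medians of 4.80 CPM (well-fed) and 2.51 CPM (underfed). It was not tested, as it failed the filter on low values.

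Across the 16 males, and as a description only, the miRNA most like oar-miR-10b in CPM was miR-374a (Spearman rho 0.835), followed by miR-26b (0.797) and candidate-miR-144 (0.782). Oar-miR-10a was most like miR-382-5p (0.835), candidate-miR-35 (0.826) and miR-1197-3p (0.749). Oar-miR-125b was most like miR-133 (0.768), let-7b (0.759) and let-7c (0.759), and the rho of these 3 within a diet was 0.714 to 0.952. Oar-miR-99a was most like miR-299-5p (0.643), miR-29a (0.624) and candidate-miR-177 (0.585). On the TMM scale, in the same order, the rho was 0.882, 0.879 and 0.932 for oar-miR-10b and 0.776, 0.594 and 0.430 for oar-miR-10a. It was 0.821, 0.809 and 0.862 for oar-miR-125b and 0.447, 0.874 and 0.818 for oar-miR-99a. Within a diet (n = 8) the rho of the 3 partners ran from -0.12 to 0.69 for oar-miR-10a, from 0.048 to 0.79 for oar-miR-10b and from 0.17 to 0.88 for oar-miR-99a. The males of a diet share their diet and each library its total, which enter all of these values.

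Between oar-miR-10a and oar-miR-10b the rho was -0.36 over the 16 males in CPM and 0.24 on the TMM scale. Within a diet it was 0.19 (well-fed) and 0.71 (underfed), with n = 8 each. The sign over all males thus changed with the scale.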

How the data were processed

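Diets and replicate numbers came from the sample labels, and the paper describes 1 library per male. The authors demultiplexed the reads (CASAVA 1.8, per the submitters' processing notes), trimmed adaptors, removed other non-coding RNAs, and took reads of 18 to 25 nt as known miRNAs (miRBase 20) or as miRNAs predicted on Oar_v3.1. The deposited signal is CPM, for which the paper names the total reads of a library as divisor. The miRNA values of each library summed to 999773 to 999964, however. Scaling to the miRNA total for miRNAs and, separately, to the piRNA total for piRNAs was therefore inferred from the values. Low values are whole multiples of 1 read within 0.02 reads for 93.7% to 99.0% of low miRNA values per library, which gave the reads per library. With 3 reads as the floor, shares and floors cover counting error only.

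From these CPM values, TMM factors (own implementation, 30% of log ratios and 5% of abundances trimmed) and limma 3.58.1 (R 4.3.3, empirical Bayes trend, two-sided) on log2(CPM + 1) were used wherever 8 or more of the 16 libraries exceeded 5 CPM. The pseudocount shrinks fold changes of low miRNAs. DE required FDR under 0.05 and FC, from CPM without TMM factors, under 0.67 or above 1.5. Shares and log2 ratios were compared by exact permutation over 12870 arrangements (Python 3.11.15, numpy 2.4.6, pandas 2.3.3, scipy 1.17.1). The limma step was run on simulated reads in which oar-miR-10b did not change and the other changes were balanced in direction. That run could therefore not test how the calls depend on normalization.

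The members, tests and lists were chosen with earlier results of these data known. Named were all listed members, fixed let-7, HOX-cluster and cell-type lists, and the 3 miRNAs most like each member. Same-numbered males deviated together with a mean r of 0.0472, and 3 of 8 pairs exceeded 0.1, so the numbers were not taken as pairs. Alternatives were other normalizations, filters, pseudocounts, weights, voom, the deeper libraries, a replicate block, other totals and each male left out. The total of both classes, and the adjustment of ratios over every pair of miRNAs, were added after seeing the data.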

Additional observations from a re-analysis of the deposited data

Results flagged for a closer look

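In 6 of 22 groups of 8 males, the highest or lowest male lay far from the rest, by a gap over range above Dixon's 95% critical value. Chance alone flags about 1 in 20 groups, and groups that share a male or a miRNA are not independent. MiR-10b was 278027 CPM in well-fed 7, above the other well-fed males. MiR-99a was 8418 CPM in underfed 6, and the same library gave the low log2 ratios of miR-10a to miR-99a (0.16) and of miR-125b to miR-99a (-0.82). In underfed 6, 5 of the 244 tested miRNAs stood far above the other underfed males. Underfed 1 had the lowest log2 ratio of miR-10b to miR-10a (4.04) and of miR-10b to miR-125b (3.70) among underfed males.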

How the results depend on the processing

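Another normalization moved most calls. The TMM factors, by which CPM was divided, were 1.08 to 1.39 in well-fed males. In underfed males they were 0.698 to 0.859, apart from underfed 1 (1.26) and underfed 8 (1.00). Division by lower factors raised underfed values relative to well-fed ones. Why the factors differed between the diets, and their part in the moved calls, was not tested. Without TMM factors the log2 fold change was -0.84 for miR-10a (now called), 0.44 for miR-10b and 0.75 for miR-99a (both no longer called) and -0.36 for candidate-miR-6. With median-of-ratios factors it was 0.77 for miR-10b (no longer called) and -0.029 for candidate-miR-6. With miR-10b out of the total it was -0.67 for miR-10a (called), 0.92 for miR-99a (not called) and -0.19 for candidate-miR-6. Joint normalization with piRNAs gave 0.59 for miR-10a, the opposite direction, and 1.51 for miR-125b and 1.07 for candidate-miR-6 (both called). MiR-125b was also called with a pseudocount of 0.1 (0.56), sample weights (0.67), voom (0.60) and in the deeper libraries (0.72). In the order no TMM, joint, miR-10b out of the total, weights, voom and deeper libraries, miRNAs called by FDR numbered 39, 85, 24, 98, 47 and 42 (15 in the reported fit), and DE miRNAs 36, 60, 23, 52, 26 and 25 (8 in the reported fit).

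With the replicate block, which the numbers were not shown to support, 15 miRNAs were called and 7 were DE, and miR-125b was called (log2 fold change 0.56, limma FDR 0.0245). The share difference of miR-10a under the block stayed at -0.760 percentage points and did not pass (exact sign flips, p = 0.0078, FDR 0.0733). Adjusted over all pairs, the ratios under the block did not pass either (exact sign flips, FDR 0.132 for the 3 with miR-10a). Without miR-10b in the total, the shares of miR-10a and miR-99a lost their calls under the block too (exact sign flips, p = 0.0078, FDR 0.0703 for both). A p of 0.0078 is the smallest that 256 sign flips can give. The ratios of miR-10b to miR-10a and of miR-10a to miR-125b were at it too. With p at this floor, a missed call under the block cannot tell whether a difference was weaker. The block changed no other call on a member.

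On the total of both classes the share difference was -0.0354 percentage points for miR-10a (not called), 11.2 for miR-10b, 0.104 for miR-99a and 0.181 for miR-125b (all called). Without miR-10b in the total it was 0.198 for miR-99a (called, but not under the block or in 11 of the 16 fits with 1 male left out). The log2 ratio of miR-125b to miR-99a was -0.67 adjusted over all pairs and -0.27 in the deeper libraries, and passed in neither.

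Over the 16 fits that each lacked 1 male, the log2 fold change ranged from 0.76 to 1.14 for miR-10b, 0.84 to 1.37 for miR-99a, 0.41 to 0.67 for miR-125b and -0.067 to 0.23 for candidate-miR-6. The share difference ranged from 7.26 to 10.7 percentage points for miR-10b (called only without underfed 1), 0.0411 (without underfed 6) to 0.146 for miR-99a and -0.0044 to 0.0853 for miR-125b. The log2 ratio ranged from 0.27 to 0.61 for miR-10b to miR-125b (called only without underfed 1), -0.46 to 0.0041 for miR-10b to miR-99a (above 0 only without underfed 6) and -0.76 to -0.29 for miR-125b to miR-99a (called in 11 of 16 fits, and -0.29 without underfed 6). MiRNAs called ranged from 4 (without well-fed 2 or well-fed 8) to 44 (without underfed 1), and DE miRNAs from 0 to 21 for the same males. Without well-fed 2 or well-fed 8, limma gave 57 and 50 miRNAs with an unadjusted p under 0.05. By limma, miR-10b was called in 4 of the 16 fits, miR-99a in 9 and miR-125b in 2. The edgeR test on recovered reads was not run, since it was planned only for whole reads and 93.7% to 99.0% of the low miRNA values per library were whole, the rest lying midway between whole numbers. Voom, which takes fractions of a read, was run. Depth limits miR-99a most, with 17 reads in well-fed 5 and 53 in underfed 8.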
